A study of Mus musculus with 11 samples.

Results

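The endothelin and adrenomedullin system was described gene by gene in cultured mouse cells of the corpus cavernosum, the erectile tissue of the penis. It was taken as 9 genes of 23238 in the deposited values, found by gene symbol: the ligands Edn1 and Adm, the endothelin converting enzyme Ece1, the endothelin receptors Ednra and Ednrb, and the adrenomedullin receptor Calcrl with its partner subunits Ramp1, Ramp2 and Ramp3. RNA sequencing covered 11 libraries of cells labelled mouse cavernous endothelial cells, all after 5 days of treatment: Hsp70 (a chaperone of the heat shock response) together with high glucose (n = 4), high glucose (n = 4) and normal glucose (n = 3). All groups grew in M199 medium with fetal bovine serum, penicillin/streptomycin and heparin. Glucose concentrations, the form and dose of Hsp70, the mouse strain and the age of the animals are unstated in the labels. No label says that replicates were separate cultures or animals, so p-values cover no more than the variation among these samples. File names sort the libraries into sets: sets 3, 4 and 5 each held 1 library of every group, and set 2 held 1 Hsp70 and 1 high glucose library. Libraries are named here by group and set.

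Endothelin-1, the product of Edn1, is a vasoconstrictor peptide of the endothelium. It is cut from its precursor by Ece1 and acts through Ednra, which drives contraction of smooth muscle, and Ednrb, which on endothelium promotes nitric oxide release and clears the peptide. Adrenomedullin, the product of Adm, is a vasodilator that raises cyclic AMP through Calcrl. Calcrl reaches the cell surface with a Ramp protein: with Ramp2 or Ramp3 it is an adrenomedullin receptor, and with Ramp1 a receptor for calcitonin gene-related peptide (CGRP). In the penis endothelin opposes erection, and high glucose is known as a model of diabetic vessel damage.

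The start regions of both ligand genes are shown because these genes lay far apart in level, with Adm the most abundant member and Edn1 among the scarcest. They are RefSeq sequences of build GRCm38.p6, 5′ to 3′ on the plus strand. Each runs from 250 bases before the annotated RefSeq start to 30 bases past it. Whether transcription began there in these cells was not tested, so the matches are not placed inside or outside a transcript. Adm is at chr7:110627407-110627686 and Edn1 at chr13:42301226-42301505. Capitals mark matches to 4 short motifs that were searched on both strands.
Adm: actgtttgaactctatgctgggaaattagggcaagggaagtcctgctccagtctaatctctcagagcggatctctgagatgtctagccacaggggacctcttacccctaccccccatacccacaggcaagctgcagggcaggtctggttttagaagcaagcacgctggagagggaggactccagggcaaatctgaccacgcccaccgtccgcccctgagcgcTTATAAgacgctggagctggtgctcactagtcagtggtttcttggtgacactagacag
Edn1: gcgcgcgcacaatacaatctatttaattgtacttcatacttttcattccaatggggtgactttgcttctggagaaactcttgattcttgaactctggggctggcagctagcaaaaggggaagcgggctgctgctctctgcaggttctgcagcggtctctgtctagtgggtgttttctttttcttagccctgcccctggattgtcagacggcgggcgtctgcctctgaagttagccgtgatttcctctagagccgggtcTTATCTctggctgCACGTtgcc
The capitals in Adm are TATAA, which matched on both strands in overlapping letters. The first capitals in Edn1 are AGATAA, the GATA motif, on the minus strand, and the next are ACGTG, the core of the hypoxia response element, also on the minus strand. The exact letters TGACTCA, the AP-1 motif, were not in either window, and variants of the motifs were not searched. Of 32851 promoters of 300 bases in the same table, 24.9% held TATAA, 11.2% AGATAA, 19.6% ACGTG and 5.2% TGACTCA on either strand. RefSeq windows were found for 8 of the 9 genes, all but Ramp2. Among the other members only Ece1 held a match, in the third of its 4 start regions, where ACGTG matched on both strands in overlapping letters.

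Normalized counts summed to 24.789 to 27.808 M per library. The worth of 1 read was estimated at 0.79 to 1.2 normalized counts, which implied 21.996 to 31.876 M reads. That estimate took the median of values in a range set around 1, so it could not fall far from 1. Smaller values above 0 occurred, as 0.205 for Ramp1 in the normal glucose library of set 5, so low values need not be whole reads. Set 3 stood apart in cell type markers. The summed normalized count of 12 endothelial markers was 1967 to 2162 in the 3 libraries of set 3 and 345.2 to 543.3 in the other 8, and the endothelial adhesion molecule Pecam1 lay at 8.86 to 9.07 against 2.68 to 4.51 (log2). Outside set 3 the endothelial genes were uneven: Tie1, Cldn5 and Robo4 were at or near 0 in several libraries, while Cdh5 lay at 5.68 to 8.26 (9.01 to 9.52 in set 3), Egfl7 at 6.69 to 7.73 (7.53 to 7.95) and Tek at 5.09 to 6.44 (5.22 to 5.89). The 8 fibroblast markers summed to between 307500 and 383700 in set 3 and between 153500 and 253100 elsewhere. In every library this was far above the sum of the endothelial markers. The levels below are thus of bulk RNA and were not assigned to endothelial cells. Between groups the endothelial sums overlapped, at 345.2 to 2162 with Hsp70, 347.8 to 2119 in high glucose and 376.7 to 1967 in normal glucose. In bulk samples fewer cells of a type and less RNA per cell cannot be told apart.

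The 9 genes spanned a wide range of levels, compared here as normalized counts per kb of the union of exons. Adm was the most abundant, with a median of 4640 per kb (range 3270 to 7970 over 11 libraries), and Ece1 followed with 1390 (1040 to 1830). Calcrl had 576 (298 to 756) and Ednra 151 (77.5 to 181). These 4 genes did not overlap with their neighbours in the order, apart from Ednra with Ednrb, which had a median of 70.1 per kb (41.4 to 96.2). Ramp2 had 32.8 (20 to 56.5) and Ramp3 22.5 (10.8 to 72.6), and the ranges of Ednrb, Ramp2 and Ramp3 overlapped. Edn1 had 5.31 (1.14 to 6.86) and Ramp1 1.6, at most 10.1, again with overlapping ranges. So in bulk RNA the vasodilator ligand was abundant and the constrictor ligand scarce, at a median of 11.3 normalized counts. Per kb, Adm exceeded Edn1 in every library. The excess ran from 540-fold in the Hsp70 library of set 5 to 4440-fold in the Hsp70 library of set 2, where Edn1 had 3.84 normalized counts.

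**Figure D1:**
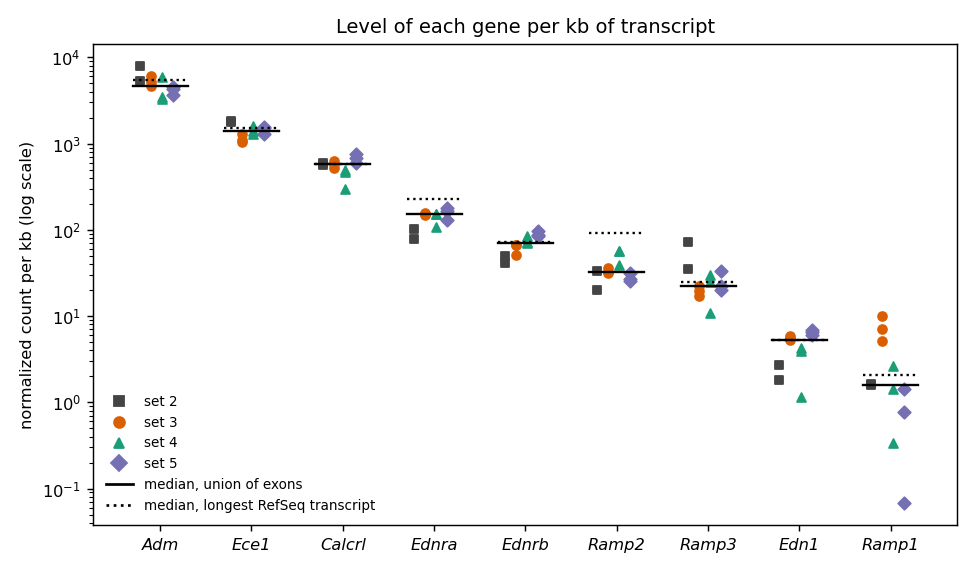
Level of each gene in normalized counts per kb (log axis), 1 point per library, marked by file set. Bars are medians over 11 libraries with the union of exons (solid) or the longest RefSeq transcript (dotted) as the length. Adm lies at the top with a median of 4640 and Ramp1 at the bottom with 1.6.

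The position of Ramp2 in this order depends on its length. Its model in GENCODE M21 (chromosome 11, 101246028 to 101259546, plus strand) reaches over the neighbour Vps25 on the same strand, so the union of exons is 3.3 kb, while its longest RefSeq transcript is 1.18 kb. With that length, chosen after the values were seen, the median of Ramp2 was 91.9 per kb, above the 72.8 of Ednrb. How reads in shared exons were assigned is not stated. Edn1, Adm, Ece1, Ednra and Ramp3 overlap an annotated antisense gene. The library kit keeps strand, but whether the counting used it is not given.

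No member passed the test in any comparison of the 3 groups, and neither did any other gene. With limma, 0 of 18248 genes tested (0%) had an adjusted p below 0.05 in any of the 3: high glucose set against normal glucose, Hsp70 set against high glucose, and Hsp70 set against normal glucose. The genes with an unadjusted p below 0.05 numbered 185, 136 and 178 in that order, and all 9 members were above the filter on low values. With the file set as a block in limma such genes numbered 636, 305 and 587, and again 0 had an adjusted p below 0.05. The SE and intervals of members are from the model without a block unless stated. The block gave each member a smaller SE, such as 0.162 in place of 0.288 for Ednrb in high glucose against normal glucose. Groups overlapped for all 9 members in each comparison, where 2.38%, 0.608% and 1.72% of all genes had groups that did not overlap. Members' log2 differences ran between -0.58 and 0.32 for high glucose against normal glucose (median -0.08, against -0.009 over all genes tested). They ran between -0.27 and 0.34 for Hsp70 against high glucose (median -0.06, against 0.003), and between -0.36 and 0.4 for Hsp70 against normal glucose (median -0.15, against -0.004). The adjusted p was 1.0 for each. Two-sided exact permutation tests of single genes, 27 in all, gave p from 0.286 to 1.0, where the design allows no p below 0.0286. These tests shuffled libraries without regard to file set, so their p-values take no account of pairing by set. Comparisons with high glucose or with normal glucose share those libraries and are not independent of each other.

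**Figure D2:**
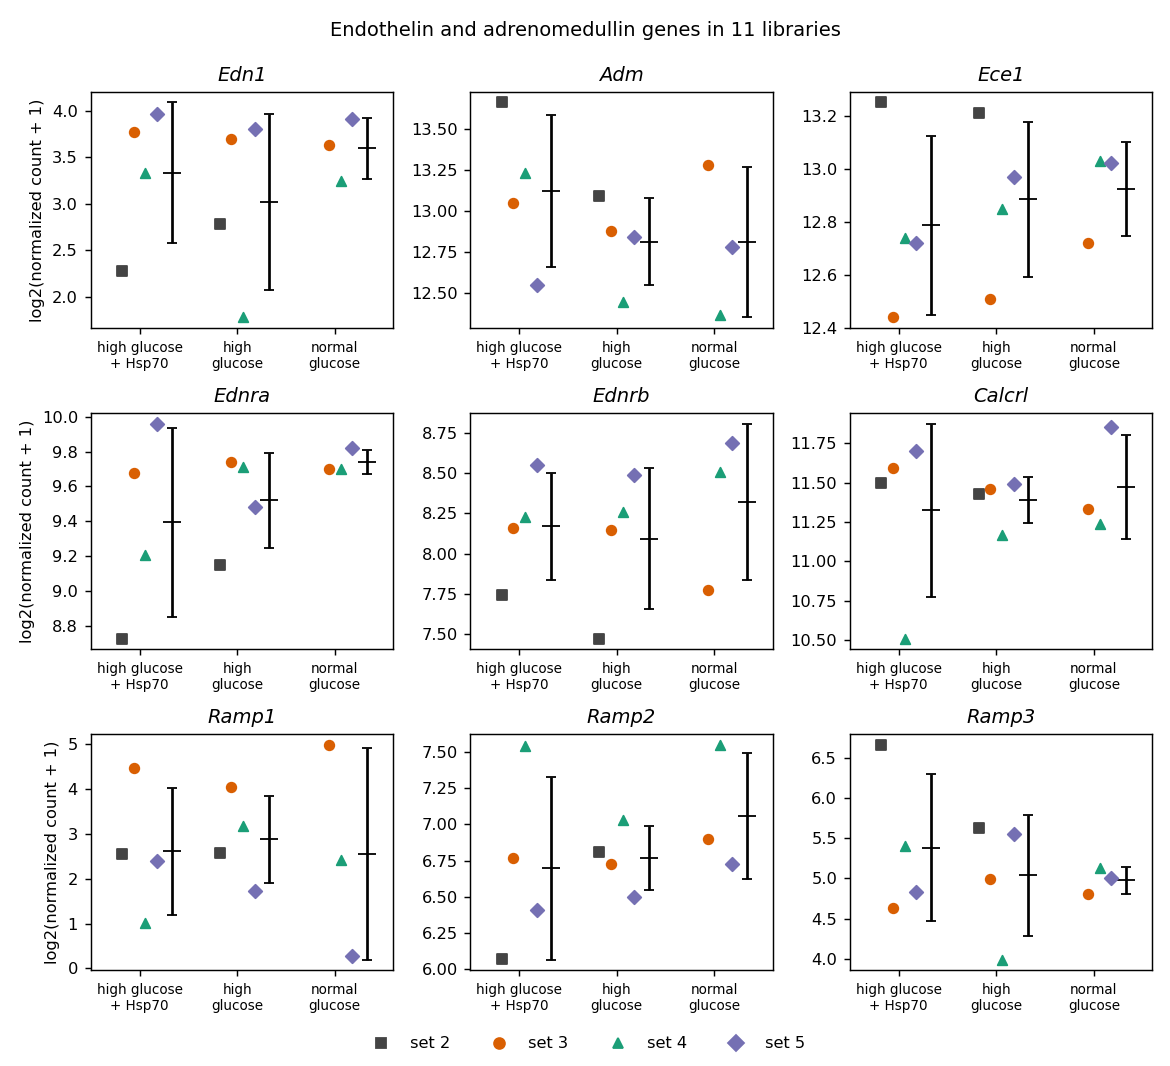
Deposited log2(normalized count + 1) of each gene by group, 1 point per library, marked by file set, with the mean and SD beside the points (n = 4, 4 and 3). The groups overlap for all 9 genes, and for several of them points of 1 set lie close together across groups, as for Ece1 with set 3 between 12.44 and 12.72.

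Edn1, the endothelin-1 precursor (chromosome 13, 42301476 to 42307990, plus strand), was scarce in all groups. Its log2 values in sets 2 to 5 were 2.28, 3.77, 3.33 and 3.97 with Hsp70, and 2.78, 3.7, 1.78 and 3.81 in high glucose. In normal glucose they were 3.63, 3.25 and 3.91 in sets 3 to 5. Both libraries of set 2 and the high glucose library of set 4 were low, and all others lay above 3. The mean was 3.02 ± 0.945 in high glucose and 3.6 ± 0.331 in normal glucose (SD, n = 4 and 3), a difference of -0.58 (SE 0.576, 95% interval -1.83 to 0.68). That difference rested on 1 library: the high glucose library of set 4 held 2.44 normalized counts, against 8.52 in the normal glucose library of the same set, and without it the difference was -0.165. Within sets 3 and 5 high glucose differed from normal glucose by 0.07 and -0.1. Hsp70 differed from high glucose by 0.32 (SE 0.533, interval -0.84 to 1.48), and by -0.096 without the same high glucose library. Against normal glucose the 3 sets gave Hsp70 differences of 0.14, 0.08 and 0.06, which share a sign, while the difference over all libraries was -0.26 (SE 0.576). In sets 3 to 5 alone it was 0.0921.

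Adm, the adrenomedullin precursor (chromosome 7, 110627661 to 110629820, plus strand), had log2 values of 13.66, 13.05, 13.23 and 12.55 with Hsp70 in sets 2 to 5. In high glucose they were 13.09, 12.88, 12.45 and 12.84, and in normal glucose 13.28, 12.37 and 12.78 in sets 3 to 5. Hsp70 libraries were higher than high glucose in sets 2, 3 and 4, by 0.57, 0.17 and 0.78, and differed by -0.29 in set 5. The mean was 13.12 ± 0.458 with Hsp70 and 12.81 ± 0.264 in high glucose (SD, n = 4 each), a difference of 0.31 (SE 0.254, interval -0.24 to 0.86, exact permutation p = 0.286). Leaving out any 1 library kept it above 0, between 0.13 and 0.499, and it was 0.13 without the Hsp70 library of set 2. High glucose and normal glucose had the same mean, 12.81 in each, with within-set differences of -0.4, 0.08 and 0.06. Hsp70 exceeded normal glucose by 0.86 in set 4 and differed from it by -0.23 in both sets 3 and 5. Adm had 5290 to 12900 normalized counts per library.

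**Figure D3:**
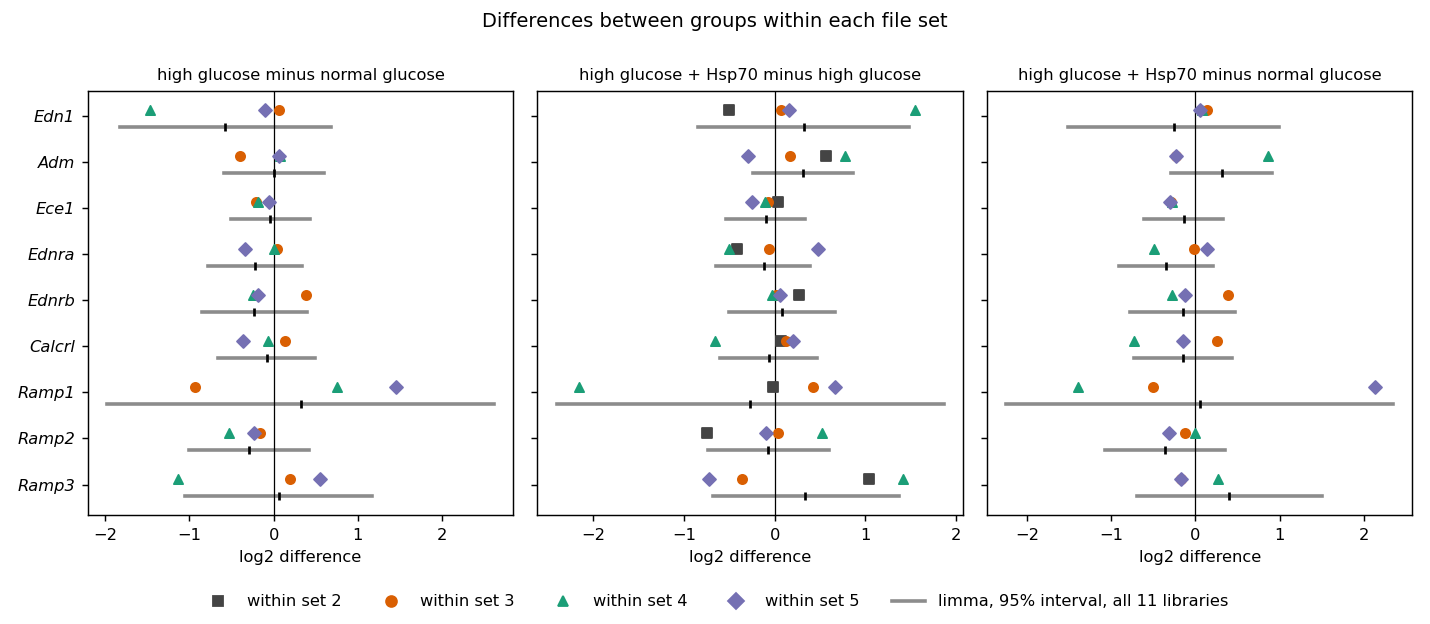
Log2 differences between groups within each file set (points), with the limma difference over all libraries and its 95% interval (lines below the points). All intervals include 0. The 3 points of Ece1 for Hsp70 against normal glucose fall together at -0.29, -0.28 and -0.3, and the Hsp70 points of Ramp3 against high glucose run between -0.72 and 1.41.

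Ece1, the membrane protease that releases active endothelin (chromosome 4, 137862237 to 137965229, plus strand), varied least among the members, with an SD of 0.264 over 11 libraries (median gene 0.366). Its log2 values in sets 2 to 5 were 13.25, 12.44, 12.74 and 12.72 with Hsp70 and 13.21, 12.51, 12.85 and 12.97 in high glucose. In normal glucose they were 12.72, 13.03 and 13.02 in sets 3 to 5. Within every set that held normal glucose, the Hsp70 library and the high glucose library were lower. The Hsp70 differences from normal glucose were -0.29, -0.28 and -0.3, and the high glucose differences were -0.21, -0.18 and -0.05. Over all libraries Hsp70 differed from normal glucose by -0.14 (SE 0.215, adjusted p = 1.0 with limma). With the file set as a block the difference was -0.27 (SE 0.11, interval -0.52 to -0.02), with an unadjusted p of 0.0355 and an adjusted p of 1.0 with limma, where 587 of 18248 genes had an unadjusted p below 0.05. A shared sign in all sets was common: it held for 3 of 9 members (Ece1 and Ramp2 lower, Edn1 higher) and 17.5% of all genes for Hsp70 against normal glucose. For high glucose against normal glucose it held for 2 of 9 (Ece1 and Ramp2, both lower) and 25.6% of all genes. No member had 1 sign in all 4 sets for Hsp70 against high glucose, where 8.31% of genes did.

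Ednra, the receptor of smooth muscle contraction (chromosome 8, 77663031 to 77724464, minus strand), had log2 values of 8.73, 9.68, 9.21 and 9.96 with Hsp70 and 9.15, 9.74, 9.71 and 9.48 in high glucose. Normal glucose libraries lay at 9.7, 9.7 and 9.82. Of the 8 treated libraries 5 lay below these, the lowest being the 2 of set 2. Hsp70 averaged 9.39 ± 0.539 and normal glucose 9.74 ± 0.0717 (SD, n = 4 and 3), a difference of -0.35 (SE 0.257, interval -0.91 to 0.21). Without the Hsp70 library of set 2 it was -0.127, and within sets 3, 4 and 5 it was -0.02, -0.49 and 0.14. High glucose differed from normal glucose by -0.22 (SE 0.257), with 0.04, 0.01 and -0.34 within sets.

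Ednrb, the receptor that clears endothelin and promotes nitric oxide release on endothelium (chromosome 14, 103814625 to 103844402, minus strand), had values of 7.74, 8.16, 8.23 and 8.55 with Hsp70 in sets 2 to 5. High glucose had 7.47, 8.15, 8.26 and 8.49 in the same sets, and normal glucose 7.77, 8.51 and 8.69 in sets 3 to 5. In both high glucose arms the value was lowest in set 2 and highest in set 5, and the 2 arms differed by 0.27, 0.01, -0.03 and 0.06 within sets (0.08 over all libraries, SE 0.266). Per kb, Ednra made up 60.5% to 74.9% of the 2 endothelin receptors with the union of exons and 69.1% to 81.2% with RefSeq transcripts. It was the more abundant endothelin receptor in all 11 libraries by both lengths, among them those of set 3 with more endothelial marker RNA, at 69.1%, 70.1% and 74.9% with the union of exons for Hsp70, high glucose and normal glucose.

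Calcrl, the adrenomedullin and CGRP receptor (chromosome 2, 84330626 to 84425411, minus strand), was at 11.5, 11.59, 10.51 and 11.7 with Hsp70 and at 11.43, 11.46, 11.17 and 11.49 in high glucose. Normal glucose libraries were at 11.33, 11.24 and 11.85. The Hsp70 library of set 4 lay below all others, at 1460 normalized counts, and the remaining 10 libraries lay between 11.17 and 11.85. Hsp70 differed from high glucose by -0.06 (SE 0.246, interval -0.6 to 0.47), and by 0.207 without that library. Hsp70 differed from normal glucose by -0.15 (SE 0.265), and by 0.122 without it, and high glucose from normal glucose by -0.08 (SE 0.265).

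Ramp2, the subunit that makes Calcrl an adrenomedullin receptor, was at 6.07, 6.77, 7.54 and 6.41 with Hsp70 and at 6.81, 6.73, 7.03 and 6.5 in high glucose. Normal glucose libraries were at 6.9, 7.55 and 6.73. High glucose was lower than normal glucose in each set, by -0.16, -0.53 and -0.23, and the difference over all libraries was -0.29 (SE 0.329, interval -1.01 to 0.42). Hsp70 differed from normal glucose by -0.13, -0.01 and -0.32 within sets and by -0.36 over all libraries (SE 0.329). Both differences leaned on the normal glucose library of set 4, the highest at 7.55: without it they were -0.05 for high glucose and -0.118 for Hsp70. Leaving out other libraries gave -0.458 to -0.207 for high glucose and -0.645 to -0.152 for Hsp70 against normal glucose.

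Ramp3, the other adrenomedullin subunit (chromosome 11, 6658521 to 6677475, plus strand), was at 6.66, 4.63, 5.4 and 4.83 with Hsp70 and at 5.62, 4.99, 3.99 and 5.55 in high glucose. Normal glucose libraries lay close together at 4.8, 5.13 and 5. Hsp70 differed from high glucose by 1.04, -0.36, 1.41 and -0.72 in sets 2 to 5, higher in 2 sets and lower in 2, and by 0.34 over all libraries (SE 0.471, interval -0.68 to 1.37). Without the Hsp70 library of set 2, the highest at 6.66, the difference was -0.084. It was -0.0051 without the high glucose library of set 4, the lowest at 3.99.

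Ramp1, the subunit of the CGRP receptor (chromosome 1, 91179822 to 91225196, plus strand), was near the depth limit outside set 3. In set 3 it was at 4.47 with Hsp70, 4.04 in high glucose and 4.98 in normal glucose, that is 21.1, 15.5 and 30.5 normalized counts. Elsewhere it had 4.83, 1.01 and 4.27 normalized counts with Hsp70 in sets 2, 4 and 5, against 4.89, 7.91 and 2.31 in high glucose and 0.205 in the normal glucose library of set 5. Normal glucose in set 4 had 4.31. No difference between groups was detected, with an interval of -2.4 to 1.86 for Hsp70 against high glucose and -1.98 to 2.62 for high glucose against normal glucose. With the file set as a block the intervals were narrower, at -1.63 to 1.09 and -1.14 to 1.9.

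Among the Ramp genes per kb, Ramp2 took a median share of 54.9% with the union of exons and 74.8% with RefSeq transcripts. In the Hsp70 library of set 2, Ramp3 was the leading subunit by both lengths, at 77.1% and 58.3%. High glucose in set 2 was split nearly evenly with the union of exons, at 47.9% Ramp2 and 49.7% Ramp3, but Ramp2 had 69.6% with RefSeq transcripts. High glucose in set 5 had more Ramp3 (54.3%) than Ramp2 (44.4%) with the union of exons, and Ramp2 led there with RefSeq transcripts, at 66.6%. In the other 8 libraries Ramp2 led by both lengths. The share of Ramp1 was 12.3%, 8.64% and 15.4% in set 3 for Hsp70, high glucose and normal glucose with the union of exons, and at most 4.98% in the other sets. These shares give no count of receptors, since they are of RNA.

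**Figure D4:**
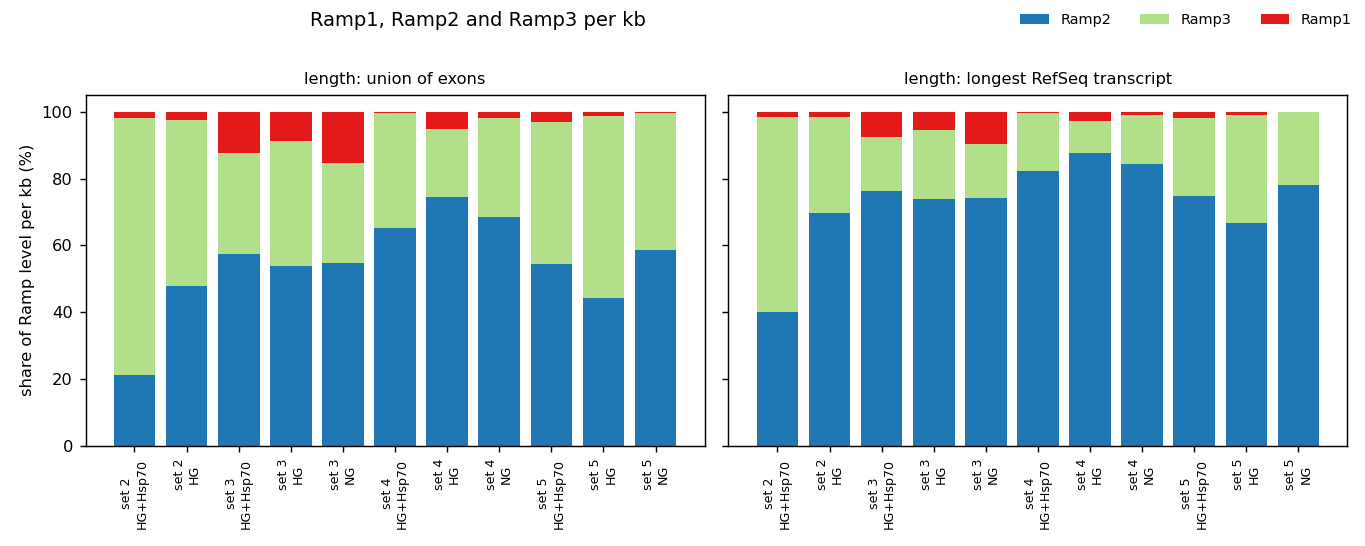
Share of Ramp1, Ramp2 and Ramp3 in their summed level per kb, 1 bar per library, by file set (HG+Hsp70, high glucose with Hsp70; HG, high glucose; NG, normal glucose), for both definitions of gene length. Ramp3 leads by both lengths in the Hsp70 library of set 2 (77.1% and 58.3%), and Ramp1 is largest in set 3.

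The file sets carried differences that the groups did not. The deposited values themselves differed by set: 2753 genes stood at exactly 0 in each library of sets 4 and 5, against 4916 to 6010 in sets 2 and 3. The part of data processing in the differences among sets, above all for genes near the floor such as Ramp1, was not tested. In a limma model with group and set, 2165 of 18248 genes (11.9%) differed among the 4 sets, and 2 of the 9 members did, Ece1 (adjusted p = 0.0264) and Ednrb (adjusted p = 0.0362). Ece1 averaged 13.23 in set 2, 12.56 in set 3, 12.87 in set 4 and 12.91 in set 5. Ednrb averaged 7.61, 8.03, 8.33 and 8.58 in sets 2 to 5. Both calls depended on single libraries: that of Ece1 was lost in 8 of 18 alternatives (0.000468 to 0.158) and that of Ednrb in 9 of 18 (0.00567 to 0.133), all but 1 of each on leaving out a single library. For Ece1 these were normal glucose of set 5, high glucose of sets 2, 3 and 4, and Hsp70 of sets 2, 3 and 5 (adjusted p 0.0582 to 0.158 with limma). For Ednrb they were normal glucose of set 5, every high glucose library, and Hsp70 of sets 2, 3 and 5 (0.0698 to 0.133). Other settings added members: without the Hsp70 library of set 4 Adm, Ednra and Ramp1 passed too, 5 of 9 in all, where 5200 genes passed, and with sample weights all 9 did, where 8529 genes passed. Libraries of 1 set are not known to be independent, so these p-values do not cover the spread between sets.

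**Figure D5:**
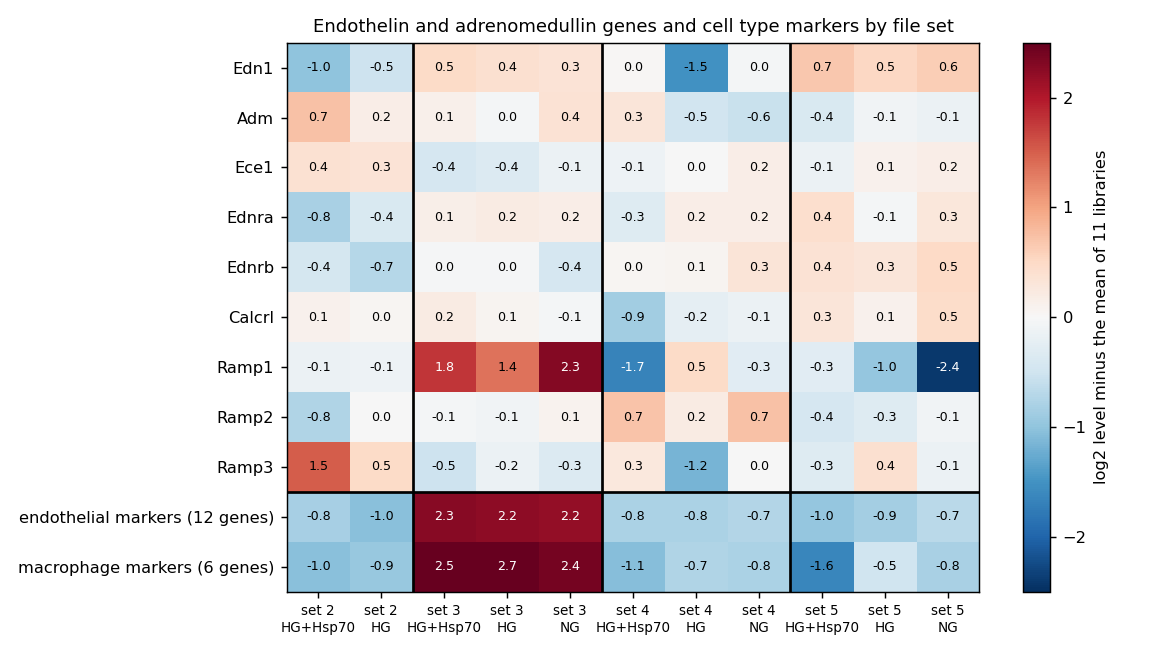
Log2 level minus the mean over 11 libraries for each gene, with the mean of 12 endothelial and of 6 macrophage markers below the line, libraries ordered by file set (HG+Hsp70, high glucose with Hsp70; HG, high glucose; NG, normal glucose). Both marker lists stand high in set 3. Of the 9 genes only Ramp1 does so to a like degree, at 4.04 to 4.98, against 0.27 to 3.16 elsewhere.

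Set 3 was set against the mean of the other sets, a contrast chosen with its distinct markers already known. There 2317 of 18248 genes passed (12.7%; 8.21% higher, 4.48% lower), and 2 of the 9 members did. Ramp1 was higher in set 3 by 2.46 (SE 0.586, interval 1.14 to 3.77, adjusted p = 0.0234 with limma). Outside set 3 it had 3 libraries under 3 normalized counts, so the size of this difference depends on the pseudocount and weighting: it was 1.35 with a pseudocount of 8 and 1.76 with sample weights, both still past the threshold. Ece1 was lower by -0.47 (SE 0.0949, interval -0.69 to -0.26, adjusted p = 0.0102), and its highest value in set 3 met the lowest elsewhere at 12.72. The call of Ramp1 was lost without normal glucose of set 3 (adjusted p = 0.106), high glucose of set 2 (0.07) or set 3 (0.0598), or Hsp70 of set 2 (0.0592) or set 3 (0.113), where limma's difference stayed between 2.02 and 2.94. That of Ece1 was lost without high glucose of set 3 (0.111) or Hsp70 of set 3 (0.0697). Cell type markers also differed in set 3, where 11 of 12 endothelial markers rose past the threshold, all but Tek. So did 5 of 6 macrophage, 4 of 6 Schwann cell, 4 of 8 fibroblast and 1 of 3 lymphatic endothelial markers. Macrophage sums were 4346 to 5083 in set 3 against 354.5 to 707.5 elsewhere. Of 6 pericyte markers 3 rose (Rgs5, Kcnj8 and Abcc9) and Cspg4 fell, with sums of 8052 to 9003 in set 3 against 5768 to 7120. Of 6 smooth muscle markers 2 rose, Des and Myh11, with Des at 9.66 to 10.02 against 4.56 to 5.94, and the mean log2 of the list was 8.65 to 9.42 against 7.21 to 8.47. Their part in the 2 results was not tested.

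Several members known as endothelial genes were not among those called in set 3. The median endothelial marker was higher in set 3 by 2.99 log2 units. Edn1 was higher by 0.6 (interval -0.27 to 1.48) and Calcrl by 0.07 (-0.3 to 0.43). Ramp2 differed by -0.01 (-0.45 to 0.43) and Ednrb by -0.15 (-0.46 to 0.17). None of these 4 passed the test, and each interval ended below the median marker. Edn1 and Calcrl had their highest values outside set 3, at 3.97 in the Hsp70 library and 11.85 in the normal glucose library of set 5. For Edn1 this was 14.7 normalized counts, against 12.6 in the Hsp70 library of set 3. Endothelial markers were uneven outside set 3: Pecam1 was no higher than 4.51, but Cdh5 reached 8.26 and Tek 6.44, above its highest value of 5.89 in set 3. Adm differed by 0.15 (-0.28 to 0.57), Ednra by 0.28 (-0.06 to 0.63) and Ramp3 by -0.57 (-1.37 to 0.23).

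The other genes of the 2 pathways were read from lists. Of 12 other ligands and processing enzymes 8 were above the filter and 0 passed in any comparison of groups. Kel, whose human counterpart is a protease that cuts the precursor of endothelin-3, was listed at 0 in all 11 libraries. The ligand genes Edn2 and Edn3 had under 1 normalized count in 10 and 9 of them. The peptidase Mme, which degrades vasoactive peptides, and Pam, which amidates adrenomedullin, were abundant, at 13.91 to 15.48 and 13.75 to 14.61 (log2). In set 3 only Calcb, which encodes a CGRP, passed (-4.33, SE 0.373, adjusted p = 9.51e-05 with limma): it was at 0 to 1.73 in set 3 and at 3.76 to 5.86 elsewhere. Calca, which also encodes a CGRP, overlapped, at 1.61 to 3.12 in set 3 and 0.01 to 4.2 elsewhere. Calcb was lower in the set in which Ramp1 was higher, but Calcb in set 3 and Ramp1 outside it were near the floor. A link between them was not tested. Adm2, which encodes a related peptide, differed from the other sets by 2.06 (SE 0.655, adjusted p = 0.0747).

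Of 4 other receptors and decoys 0 passed between groups. Differences of all 4 were above 0 for high glucose against normal glucose and below 0 for Hsp70 against high glucose, which share libraries. With limma 1 gene had an unadjusted p below 0.05 in each of these comparisons. For Hsp70 against normal glucose 1 was above 0 and 3 below, with 0 at that p. The largest difference was in Calcr, the calcitonin receptor, which had under 1 normalized count in 8 of 11 libraries. Ackr3, a scavenging receptor that also takes up adrenomedullin, was higher in set 3 by 1.78 (SE 0.124, adjusted p = 3.3e-05 with limma), at 9.53 to 9.95 against 7.42 to 8.57.

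All 18 genes of the G protein and calcium arm of the endothelin receptors were tested and 0 passed in any comparison of groups, with list medians of 0, -0.02 and 0.02 in the 3 comparisons in the order above. In set 3 the IP3 receptor Itpr3 was lower (-0.45, SE 0.0985, adjusted p = 0.0165), and the other 17 did not pass. Of 23 genes of the cyclic AMP arm 0 passed between groups, with medians of 0.07, 0.03 and 0.03 in the same order. In set 3, 7 of the 23 passed. Adenylyl cyclase Adcy5 was higher by 1.64 (SE 0.18, adjusted p = 0.000353), the phosphodiesterases Pde3b and Pde4b by 0.91 and 0.83, and the protein kinase A subunit Prkar1b by 0.54, while the phosphodiesterase Pde4a was lower (-0.52, SE 0.106, adjusted p = 0.0106). The other members of the arm that passed were Pde4d (1.4) and Adcy3 (0.43).

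Patterns most like each member were sought among 8838 genes of above median level by Pearson correlation of log2 values over the 11 libraries, which share sets and groups; the values are descriptions. Adm was most like Taldo1 (r = 0.96) and Cnih1 (0.957). Edn1 was most like Ric3 (0.847) and Tgfb2 (0.844), the lowest best match of any member. Ece1 was most like Arhgap6 (0.985) and Tnfrsf10b (0.981), and these stayed its closest after set means were taken out, at 0.957 and 0.955. The closest of the other 8 members were different genes once set means were taken out: Coq7 for Adm (0.996), Wfs1 for Edn1 (0.908), Nr4a3 for Ednrb (0.97), Fblim1 for Calcrl (0.99) and Plod1 for Ramp2 (0.967), among others. With all libraries as deposited, Ednra was most like Tmtc1 (0.939), Ednrb Tshz3 (0.946), Calcrl Slc25a16 (0.964), Ramp1 Arid5a (0.916), Ramp2 Acad8 (0.965) and Ramp3 Ywhah (0.929).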

How the data were processed

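The 11 libraries were made from total RNA with a SMARTer kit that keeps strand, per the labels' protocols. The authors deposited 1 file of log2 values per library, which behave as log2(normalized count + 1). TopHat, edgeR and the mm10 genome are named, with no version, in the submitters' processing notes, and the normalization method is not given in the sources used here. Each file held 23282 rows; 44 repeated symbols were dropped. The 18248 genes that reached 1 normalized count in 3 or more libraries entered limma 3.58.1 (R 4.3.3) as log2 values (3 group means, trended prior, robust variances, Benjamini-Hochberg at 0.05), and single members by two-sided exact permutation. The test was checked on simulated data, in which libraries were drawn independently and the group tests carried no differences among sets. That check does not cover the set structure of these libraries. Positions and lengths came from GENCODE M21, and start regions from RefSeq. Plots were made in Python 3.11.15 (matplotlib 3.10.9).

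Members, lists and tests were chosen with earlier results of these data known. All 9 members are named, with up to 5 genes of each pathway list by smallest unadjusted p and the closest patterns; genes named beyond these were chosen after their values were seen. Sample titles number normal glucose 1 to 3, whereas file names put these libraries in sets 3 to 5. With group means taken out, high and normal glucose libraries of sets 3 to 5 correlated at 0.594, 0.302 and 0.285, all above 0.1, and count as paired by set. Hsp70 and high glucose correlated at 0.422, 0.691, 0.0586 and 0.262 in sets 2 to 5, and Hsp70 and normal glucose at 0.458, 0.0219 and 0.372 in sets 3 to 5, so set 4 was not paired there. The tests carry no block; the file set as a block is an alternative. Alternatives were other filters, normalizations, variance models, a pseudocount of 8, blocks and leaving out libraries.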

Additional observations from a re-analysis of the deposited data

Results flagged for a closer look

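Calcrl was at 10.51 (log2) in the Hsp70 library of set 4, far from the other 3 Hsp70 libraries, which lay between 11.5 and 11.7. The gap to the nearest of them, as a share of the range of the group, was above the 95% critical value of Dixon's test for 4 samples. Among 18 such tests of 9 genes in both groups of 4 libraries this was the only one past that value, and chance gives about 1 in 20. With group means taken out, the same library correlated with the other libraries of its set at only 0.0586 (high glucose) and 0.0219 (normal glucose). Whether the low Calcrl belongs to Hsp70 treatment or to that library was not tested.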

How the results depend on the processing

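No member passed the limma test in any comparison of groups under any of 22 alternatives. The replicate block by file set, by title number, or by file set within sets 3 to 5 gave 0 called genes in each comparison and changed no call. Leaving out 1 library gave 0 to 3 called genes for Hsp70 against high glucose and 0 to 3 for Hsp70 against normal glucose; the 3 came without the Hsp70 library of set 3, and none was a member. Counts of genes that differ by set moved more. Differences among sets (2165 genes) numbered 614 to 5200 on leaving out 1 library, 1375 with no filter and 8529 with sample weights. Set 3 against the other sets (2317 genes) gave 939 to 3805 on leaving out 1 library and 6662 with sample weights; the lowest came without high glucose of set 3 and the highest without Hsp70 of set 4. In the set 3 contrast Ece1 was also lost with quantile normalization (adjusted p = 0.0557) and Ramp1 with no filter (0.0988), and Edn1 passed with sample weights (0.0299). Among sets, 2 of 9 members became 5 without the Hsp70 library of set 4 (Adm 0.0186, Ednra 0.0235 and Ramp1 0.0149 added) and 9 with sample weights (Edn1 0.0105, Adm 0.00812, Ednra 0.0103, Calcrl 0.012, Ramp1 0.00661, Ramp2 0.0391 and Ramp3 0.0454 added), and Ramp1 passed with a pseudocount of 8 (0.0222). The cause was not tested. Lengths of the longest RefSeq transcript, added after the data were seen, put the median share of Ramp2 at 74.8% in place of 54.9% and that of Ednra at 75.0% in place of 67.4%, through shorter lengths. With 3 or 4 libraries a group, the median standard error over all genes was 0.265 to 0.287 log2 units without a block. Differences of the size seen here could not be told from that spread between libraries. The file set as a block gave members smaller standard errors, and no member passed there either. Low counts limit Ramp1 in most libraries outside set 3 and Edn1 in 2 libraries (2.44 and 3.84 normalized counts).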

Other observations

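The Hsp70 library of set 2 held the highest Adm (13.66), Ece1 (13.25) and Ramp3 (6.66) and the lowest Ednra (8.73) and Ramp2 (6.07) of all 11 libraries. The normal glucose library of set 5 held the highest Calcrl (11.85) and Ednrb (8.69) and the lowest Ramp1 (0.27). The high glucose library of set 4 held the lowest Edn1 (1.78) and Ramp3 (3.99). How many of all genes had an extreme in these libraries was not counted, so these values do not mark the 9 genes out. No set has a normal glucose library to put beside the Hsp70 library of set 2.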
